A study of Mus musculus with 24 samples.

Results

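The genes described here act in the breakdown and salvage of purines and in the cleavage of nucleotides outside the cell. They were chosen by gene symbol from a list of 10 genes, and the list was drawn up after the old-against-young results of these same libraries were known. Of the 10, 7 had a row among the 18762 genes of the deposited table (*Gda*, *Ampd3*, *Ada*, *Hprt*, *Enpp5*, *Enpp4* and *Nt5e*), and all 7 passed the filter on low values that kept 12354 genes. *Xdh*, *Pnp* and *Adk* were not analysed here. Since the list was selected on the age comparison, the age values of the 7 genes are given as a description.

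RNA-seq had been performed on LSK-SLAM cells, the fraction of mouse bone marrow that is lineage-negative, Sca-1+, c-Kit+, CD48- and CD150+ and that is enriched for hematopoietic stem cells (HSCs). All mice were wild-type C57BL/6, with 5 young mice (4 to 5 months in the labels) and 7 old mice (20 to 22 months), while a legend in the study's supplement gives older ages for both groups. Each mouse was labelled as 2 samples but had 1 column of values, and was counted once. Mouse labels also carry a letter, A (young mice 1 and 2, old mice 1, 5, 6 and 7) or B (young mice 3 to 5, old mice 2 to 4), whose meaning is not stated.

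A normalized read count is the number of reads of a gene divided by a library size that the authors had adjusted with a factor for each library. Between 861047 and 5118507 reads per mouse were recovered from these values, and old mice 7 and 5 were the shallowest. All 7 stem cell and sort gate markers (*Kit*, *Ly6a*, *Slamf1*, *Procr*, *Fgd5*, *Hlf* and *Mecom*) were above 0 in every mouse. Old mouse 5 had the lowest sum of these markers (1263) and old mouse 7 the next lowest (1910), while the remaining mice had 2471 to 4436. The 1068 olfactory receptor genes, of which 315 passed the filter on low values, were taken as a background level. Whether these cells use some of them was not tested. They gave a level of 5.52 and 5.05 normalized read counts per kb of exon in old mice 5 and 7. That level was 2.44 to 3.49 in the other letter A mice and 0.550 to 2.24 in letter B mice, so these 2 libraries stood apart on both measures.

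Purine nucleotides are broken down inside cells by dephosphorylation, deamination and release of the base. Guanine deaminase turns guanine into xanthine, adenosine deaminase turns adenosine into inosine, AMP deaminases turn AMP into IMP, and xanthine dehydrogenase makes uric acid at the end of the route. HPRT works in the other direction and returns hypoxanthine and guanine to the nucleotide pool. Outside the cell, ectonucleotidases of the ENPP family cleave nucleotides and related compounds, and the surface enzyme CD73, encoded by *Nt5e*, releases adenosine from AMP.

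*Gda*, which encodes guanine deaminase, showed the widest separation of the ages. The gene lies on the minus strand at chr19:21391307-21473445 (mm10). Its normalized read counts were 149.6, 186.5, 205.2, 162.7 and 139.3 in young mice 1 to 5, and 582.6, 508.1, 662.3, 474.8, 206.0, 469.3 and 446.4 in old mice 1 to 7. All 7 old mice were above all 5 young mice, but old mouse 5 exceeded the highest young mouse by less than 1 normalized read count and the other old mice lay far above it. The young mean was 168.7 ± 27.0 (SD, n = 5). The old mean was 478.5 ± 141.9 (SD, n = 7), a ratio of 2.84 and a difference of 1.44 on the log2(value + 1) scale with an SE of 0.25. Of the 12354 genes tested, 36 (0.291%) had every old mouse above every young mouse. The reads behind these values numbered 261 to 2442 per mouse.

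The bases before a *Gda* start site are shown because this was the gene with the largest age difference. RefSeq (GRCm38.p6, the assembly also called mm10) places this window at chr19:21472662-21472911 on the minus strand, inside the *Gda* gene model of GENCODE, and the read counts do not tell which start site was used. The 250 bases upstream of that start held 5 CG dinucleotides, where the median of 32851 RefSeq windows was 6. Short motifs were searched on both strands, and none of their letters overlapped another motif's match in this window. The motif of the TATA box was spelled TATAAA and that of the CCAAT box was spelled with the letters of its name. The motif of GATA factors was spelled AGATAA, and that of RUNX factors was written as TGTGGT. For ETS factors the search used the letters CCGGAA, for the E-box it used the letters CACGTG, and for AP-1 factors the motif was spelled TGACTCA in this search. Of these 7 motifs, the CCAAT box alone was found, once and on the opposite strand, 17 bases before the start. Capitals mark that match, and 33.8% of all windows held this motif on either strand.
Gda upstream: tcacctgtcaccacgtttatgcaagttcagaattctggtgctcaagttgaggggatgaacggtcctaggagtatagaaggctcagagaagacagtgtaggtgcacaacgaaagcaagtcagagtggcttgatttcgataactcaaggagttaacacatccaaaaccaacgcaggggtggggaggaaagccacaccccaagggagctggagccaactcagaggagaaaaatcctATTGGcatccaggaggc

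*Enpp5* encodes a little-studied member of the ENPP family and lies on the plus strand at chr17:44078813-44086567. Young mice 1 to 5 had normalized read counts of 97.7, 83.6, 69.3, 91.0 and 84.0. Old mice 1 to 7 had 262.1, 244.2, 260.5, 271.6, 90.8, 221.9 and 184.5. The other old mice were all above the young mice, and old mouse 5 lay inside the young range. The young mean was 85.1 ± 10.6 (SD, n = 5) and the old mean 219.4 ± 64.1 (SD, n = 7), with a ratio of 2.58 and a log2 difference of 1.29 (SE 0.24).

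*Enpp4*, whose product cleaves nucleotides at the cell surface, is the neighbour of *Enpp5* at chr17:44096308-44105809. The genes lie on opposite strands with their 3′ ends facing each other, and 9740 bases separate them. *Enpp4* values were 71.1 to 110.7 in young mice (median 92.8) and 67.1 to 141.2 in old mice (median 105.3), and 3 of 7 old mice were above the young range. Its log2 difference was 0.21 (SE 0.20), so that ages overlapped at *Enpp4* while they were nearly separate at *Enpp5*.

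*Ampd3*, an AMP deaminase known from red blood cells, lies on the plus strand at chr7:110768206-110812405. Young mice 1 to 5 had values of 65.3, 63.0, 53.2, 60.6 and 64.3. Old mice 1 to 7 had 113.0, 126.5, 134.8, 115.9, 63.9, 81.2 and 60.3. The young mice were within a narrow range, 5 of the 7 old mice were above it, and old mice 5 and 7 were the exceptions. The ratio of means was 1.62, with a log2 difference of 0.63 (SE 0.22). *Ampd3* overlaps *Rnf141* and B430319F04Rik on the opposite strand and *Gm47282*, and since the strand setting of the counting is not stated, reads of overlapping genes cannot be told apart.

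RefSeq lists 3 windows for *Ampd3* start sites, and they are shown because their base composition differed. All 3 lie inside the *Ampd3* gene model of GENCODE, and the read counts do not tell which start site was used. The bases soon after the start were found in GENCODE transcripts of the gene for the middle window only. The outermost, at chr7:110768372-110768621, held 17 CG dinucleotides, a CCAAT-box match and an ETS match, both on the opposite strand. The middle window, at chr7:110772354-110772603, held 2 CG dinucleotides and an E-box match, a palindrome that reads alike on both strands. The innermost, at chr7:110773386-110773635, also held 2 CG dinucleotides, with a CCAAT-box match on the gene's strand and a GATA match on the opposite strand 9 bases before the start. Windows with an ETS, E-box or GATA match made up 12.03%, 6.02% and 9.99% of the 32851. Capitals mark the matches, and no window was listed for *Enpp5*.
Ampd3 outermost start: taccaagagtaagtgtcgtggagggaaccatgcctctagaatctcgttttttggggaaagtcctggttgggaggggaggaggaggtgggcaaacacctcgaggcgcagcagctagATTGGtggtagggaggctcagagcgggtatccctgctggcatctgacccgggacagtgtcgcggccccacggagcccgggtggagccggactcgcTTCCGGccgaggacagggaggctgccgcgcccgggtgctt
Ampd3 middle start: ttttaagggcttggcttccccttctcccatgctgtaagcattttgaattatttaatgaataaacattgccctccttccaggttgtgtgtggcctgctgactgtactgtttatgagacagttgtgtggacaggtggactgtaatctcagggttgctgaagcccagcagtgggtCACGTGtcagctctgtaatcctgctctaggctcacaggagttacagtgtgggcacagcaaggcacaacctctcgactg
Ampd3 innermost start: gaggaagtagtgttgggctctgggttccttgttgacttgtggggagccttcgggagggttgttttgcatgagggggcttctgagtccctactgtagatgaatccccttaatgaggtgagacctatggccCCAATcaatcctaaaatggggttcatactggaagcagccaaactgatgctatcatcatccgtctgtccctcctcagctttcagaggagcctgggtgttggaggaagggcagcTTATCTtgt

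The remaining 3 genes showed overlapping ages. *Ada*, adenosine deaminase (chr2:163726584-163750239), had values of 12.9 to 26.1 in young and 12.2 to 32.4 in old mice, with a log2 difference of 0.11 (SE 0.31). *Hprt*, the salvage enzyme (chrX:52988137-53021659), had 64.1 to 109.0 in young and 26.8 to 114.3 in old mice, with a log2 difference of -0.33 (SE 0.27). Its lowest value was that of old mouse 5, and the next old mouse had 51.6. *Nt5e* (chr9:88327197-88372092) had 5.89 to 25.5 in young and 3.69 to 35.7 in old mice, with a log2 difference of 0.18 (SE 0.53). The estimates ± 2 SE spanned -0.51 to 0.74 for *Ada*, -0.87 to 0.22 for *Hprt* and -0.88 to 1.24 for *Nt5e*. Changes within these ranges are compatible with the values.

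**Figure D1:**
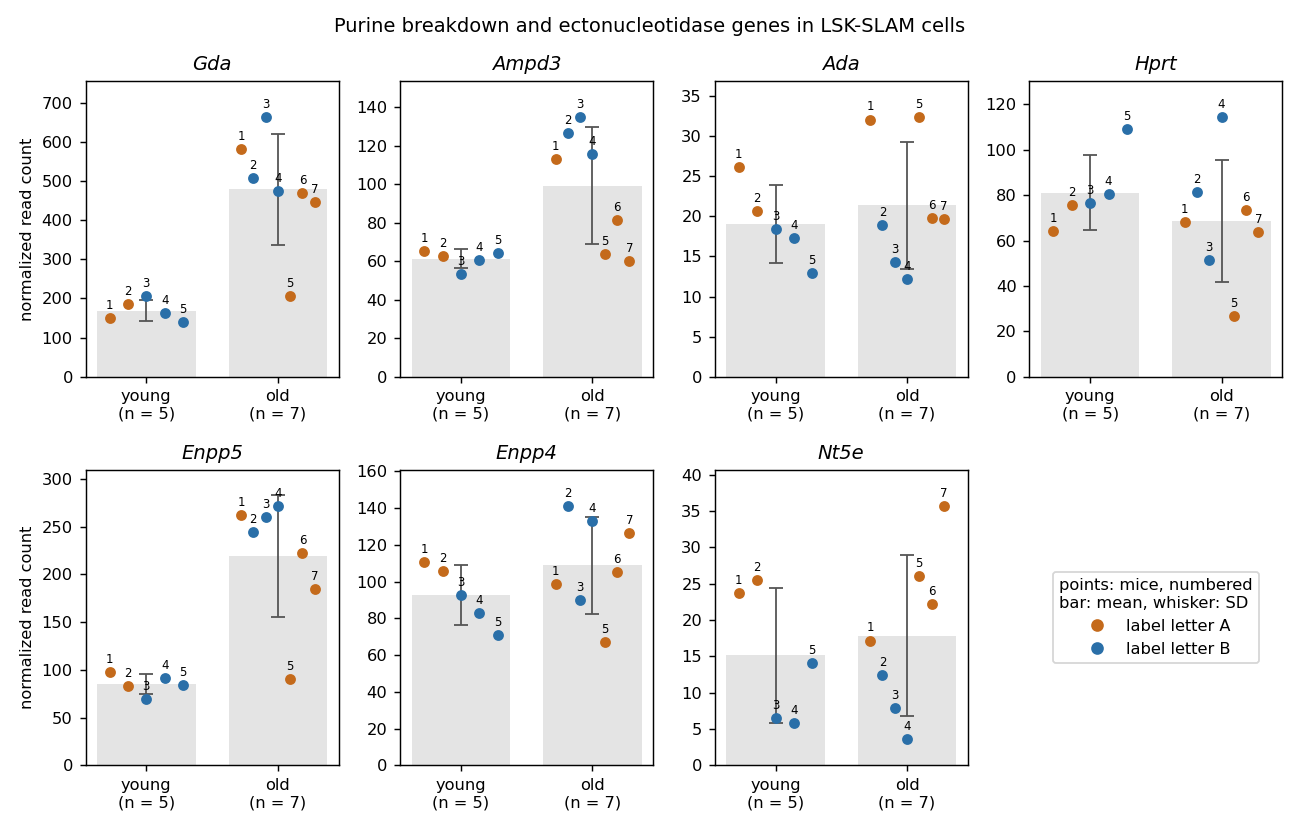
Normalized read count (vertical axes, from 0) of each gene in the 5 young and 7 old mice. Points are mice with their number, colours are the label letters, grey bars are group means and whiskers are the SD; *Gda* values of old mice run from 206.0 to 662.3 and those of young mice from 139.3 to 205.2, while *Nt5e* separates by letter and not by age.

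Over all genes, limma called 13 of 12354 between the ages (0.105%) at a Benjamini-Hochberg adjusted p under 0.05, of which 12 were higher in old mice (0.0971%). *Gda* and *Enpp5* were 2 of those 12 and no other gene of the 7 was called. The list was selected on this comparison, so nothing is read from its share. The median log2 difference was 0.21 over the 7 genes and -0.02 over all genes tested. In bulk RNA a lower value cannot distinguish fewer cells of a type from less RNA per cell.

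The age differences were then set side by side within the label letters. *Gda* differed by 1.25 (SE 0.41) among the 6 letter A mice and by 1.69 (SE 0.18) among the 6 letter B mice on the log2 scale. *Enpp5* differed by 0.96 (SE 0.38) and 1.66 (SE 0.18). For *Ampd3* the values were 0.26 (SE 0.36) and 1.07 (SE 0.20), and for *Enpp4* they were -0.16 (SE 0.35) and 0.54 (SE 0.21). These 4 genes thus had larger estimates among the B mice. For *Ada* the young and old means were 23.4 and 26.0 in A mice, and 16.2 and 15.2 in B mice. Those of *Hprt* were 69.8 and 58.2 in A, and 88.8 and 82.4 in B mice. *Nt5e* had 24.6 and 25.3 in A, and 8.82 and 7.98 in B mice. Among the 3 young and 3 old B mice, ages did not overlap for *Gda*, *Enpp5* or *Ampd3*. Groups this small separate easily, and the share of all genes that did so was not counted. *Gda* in B mice was 139.3 to 205.2 in young and 474.8 to 662.3 in old mice. *Ampd3* was 53.2 to 64.3 in young and 115.9 to 134.8 in old B mice. The interaction of age and letter, tested with limma over all genes, was called for none of the 7 genes and for 2 of 12354 genes in all (3.43% of all genes had an unadjusted p under 0.05). *Ampd3* was the only one of the 7 with an unadjusted p under 0.05 for the interaction (0.0435, adjusted p = 0.9998 in limma), and edgeR's quasi-likelihood test and DESeq2 called none of the 7 either.

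The same genes were called in some of these fits and not in others. With the letter as a covariate, *Gda* (1.48, SE 0.22) and *Enpp5* (1.33, SE 0.22) were called, among 35 genes called higher in old mice (0.283% of those tested). Among B mice alone, *Gda*, *Enpp5* and *Ampd3* were called, where 0.785% of genes were called higher. Without old mice 5 and 7 the same 3 genes were called, where 0.411% were called higher, and the log2 difference was 1.67 (SE 0.16) for *Gda*, 1.56 (SE 0.14) for *Enpp5* and 0.87 (SE 0.17) for *Ampd3*. Among A mice alone, and with values rescaled by median ratios, none of the 7 was called. When single mice were left out, *Gda* stayed called without young mouse 2 or without old mouse 4, 5 or 7, and *Enpp5* only without old mouse 5. The direction of *Gda*, *Enpp5* and *Ampd3* was higher in old mice under all 27 alternatives that were fitted.

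**Figure D2:**
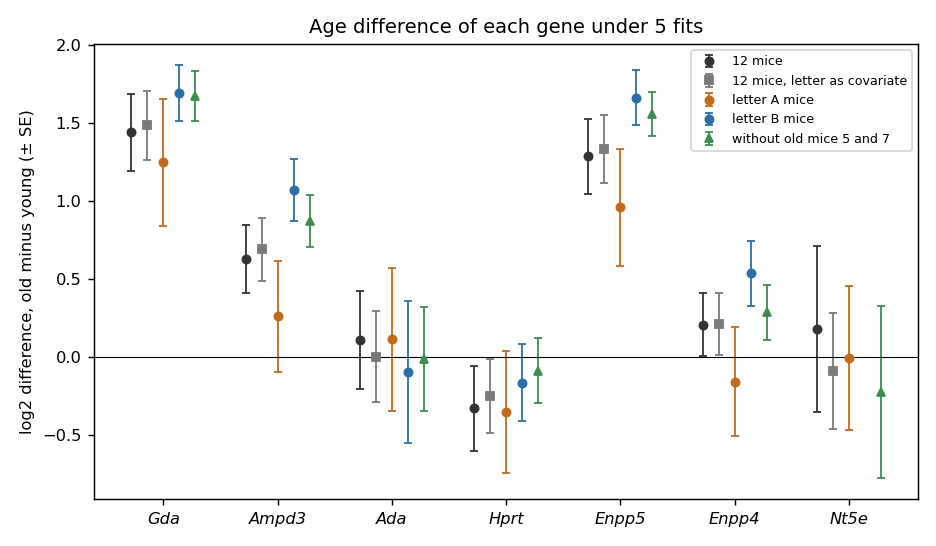
Log2 difference between old and young mice (vertical axis; points are limma estimates, whiskers the SE) for each gene under 5 fits. *Gda* ranges from 1.25 among A mice to 1.69 among B mice, while the estimates for *Ada*, *Hprt* and *Nt5e* stay closer to 0; *Nt5e* was below the expression filter among B mice.

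Old mouse 5 had the lowest *Gda*, *Enpp5*, *Enpp4* and *Hprt* values among the old mice, and also the lowest stem cell marker sum of all mice. Values were therefore also expressed as a percent of the summed level of the 7 stem cell and sort gate markers in the same mouse. On this scale *Gda* was 4.06 to 7.55% in young and 10.7 to 23.4% in old mice, and old mouse 5 had 16.3%. *Enpp5* was 1.67 to 3.38% in young and 5.68 to 9.66% in old mice, with 7.19% in old mouse 5. The ages did not overlap for either gene on this scale, in which old mouse 5 is divided by the lowest marker sum of all mice. *Ampd3* was 1.28 to 2.548% in young and 2.546 to 5.06% in old mice, and 6 of the 7 old mice were above the young range. This scale was chosen after the low values of old mouse 5 were seen, and it lifts that mouse by construction, so nothing is read from the separation. The old-to-young ratio on it was 3.14 for *Gda*, 2.78 for *Enpp5* and 1.78 for *Ampd3*.

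**Figure D3:**
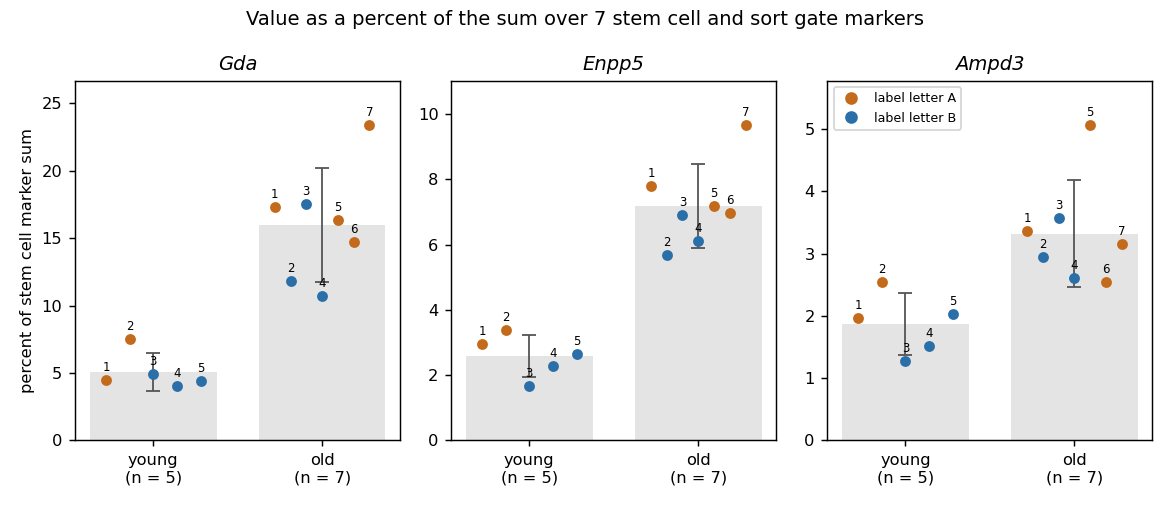
Level of *Gda*, *Enpp5* and *Ampd3* as a percent of the summed level of 7 stem cell and sort gate markers (vertical axes, from 0) in young and old mice. Points are mice with their number, bars are means and whiskers the SD; old mouse 5 stands at 16.3% for *Gda* and 7.19% for *Enpp5*, above the young maxima of 7.55% and 3.38%.

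Markers of other cells also differed between the libraries. The summed level of the progenitor markers *Cd34*, *Flt3* and *Cd48* was 167 to 293 in young and 98.0 to 139 in old mice, without overlap. The 7 granulocyte and monocyte genes with a row summed to 212 to 554 in young and 160 to 2184 in old mice, all were above 0 in every mouse, and old mouse 6 was highest. *Gda* in old mouse 6 was 469.3, near the old median of 474.8. The megakaryocyte genes summed to 139 to 258 in young and 111 to 245 in old mice. Old mouse 5 had the highest sums of the B lymphoid (168), T and NK lymphoid (90.8) and macrophage (171) genes. Between the letters, the B lymphoid genes summed to 95.5 to 168 in A and 58.5 to 97.5 in B mice, the macrophage genes to 59.7 to 171 and 34.1 to 61.7, and the stromal genes to 147 to 280 and 60.1 to 172. Old mouse 5 also had the highest olfactory receptor level (5.52 per kb). That level was 2.44 to 5.52 in A and 0.550 to 2.24 in B mice, and the marker sums were not corrected for it. How far the sums follow that level, and the part of these markers in the age and letter differences, was not tested. Among genes with the other 6 old mice above all young mice, old mouse 5 failed to follow in 39 of 75 (52.0%), compared with 5.26 to 46.3% when another old mouse was set apart in the same way.

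Over the 12 mice, with the difference between the ages left in, *Gda* and *Enpp5* were alike. Within the young mice they did not rise together, and young mouse 3 had the highest *Gda* (205.2) and the lowest *Enpp5* (69.3). After the mean of each letter had been subtracted, the genes whose log2 values were most like *Gda* over the 12 mice were *Vldlr* (Pearson r = 0.98), *Selp* (0.97), *Pbx3* (0.95), *Vwf* (0.95) and *Klhl4* (0.95). *Enpp5* ranked 8th (0.95), *Ampd3* 71st (0.83) and *Enpp4* 815th (0.52) among all genes tested. The genes most like *Enpp5* were *Ezh1* (0.96), *Sult1a1* (0.96), *Itgb3* (0.95), *Vldlr* (0.95) and *Clec1a* (0.95), and *Ampd3* ranked 29th (0.90). *Hprt*, *Ada* and *Nt5e* had r between -0.19 and -0.03 with *Gda*. These values describe likeness only, because the 12 points share the age groups, the libraries and their scaling.

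To order the genes by level, values were divided by exon length in kb. The order of mean log2 levels was *Hprt*, *Gda*, *Enpp5*, *Enpp4*, *Ampd3*, *Ada* and *Nt5e*. Within a mouse, *Gda* exceeded *Enpp5* by 0.71 ± 0.28 (SD, n = 12) on the log2 scale, and *Enpp4* exceeded *Ampd3* by 0.64 ± 0.47 (SD, n = 12). *Ada* exceeded *Nt5e* by 2.62 ± 0.82 (SD, n = 12), in all 12 mice. The neighbours *Hprt* and *Gda*, *Enpp5* and *Enpp4*, and *Ampd3* and *Ada* did not differ beyond the SD of their difference. Levels of *Gda* per kb were 22.3 to 32.9 in young and 33.0 to 106 in old mice, and those of *Hprt* were 49.7 to 84.6 and 20.8 to 88.7. *Hprt* was therefore above *Gda* in every young mouse and below it in 6 of the 7 old mice.

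The label letter was the comparison that the choice of genes did not use. limma, with age in the model, called 4462 of 12354 genes between B and A mice (36.1%), of which 1301 were higher and 3161 lower in B mice (25.6%). This split depended on the setting, with 3357 higher and 2389 lower after rescaling by median ratios, and 925 higher and 531 lower with a minimum mean of 30. Of the 7 genes, only *Nt5e* was called. Its normalized read counts were 23.6, 25.5, 17.2, 26.0, 22.2 and 35.7 in A mice (young mice 1 and 2, old mice 1, 5, 6 and 7) and 6.48, 5.89, 14.1, 12.4, 7.83 and 3.69 in B mice (young mice 3 to 5, old mice 2 to 4). All B mice were below all A mice, as was the case for 7.33% of the genes tested. The log2 difference was -1.57 (SE 0.37, adjusted p = 0.0028), and A mice had 2.98 times the mean level of B mice. The share of 14.3% called among the 7 genes was below that of the whole table.

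On the deposited scale *Ada* also had no overlap of the letters, with 19.7 to 32.4 in A and 12.2 to 19.0 in B mice. With the olfactory receptor level subtracted, in a setting added after seeing the data, the letters overlapped for *Ada*. It then had 9.57 to 26.2 in A and 8.44 to 16.4 in B mice. Its log2 difference before subtraction, -0.63 (SE 0.29), did not pass in limma over all genes (adjusted p = 0.084). *Ada* was called in DESeq2 (adjusted p = 0.0415) and in limma without the trend (adjusted p = 0.0345). Over all alternatives its adjusted p was 0.0345 to 0.311. A two-sided exact permutation test of the 6 A against the 6 B mice gave p = 0.0022, the smallest this design gives. After Benjamini-Hochberg adjustment over the 5 exact tests that were run it was 0.0036. This p follows from the lack of overlap and adds nothing to it, and 7.33% of the genes tested had all B mice below all A mice. The other 5 genes had log2 differences between 0.01 and 0.44 with adjusted p of 0.135 or more. For *Gda* the difference was 0.26 (SE 0.22) and for *Hprt* 0.44 (SE 0.23). Rescaling by median ratios, which moves the median letter difference of all genes from -0.09 to 0.23, brought *Hprt* and *Ampd3* past the threshold as higher in B mice.

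The olfactory receptor level was set beside *Nt5e* in each mouse. Per kb of exon, *Nt5e* was 0.548 to 1.13 times the olfactory receptor level, with a median of 0.766, and it was at or below that level in 10 of 12 mice. The olfactory receptor level itself was lower in B than in A mice in the two-sided exact permutation test (p = 0.0022, adjusted 0.0036, 6 against 6, the smallest possible). The ratio of *Nt5e* to it had a mean log2 difference of -0.06 between B and A mice (exact permutation p = 0.734, adjusted 0.734). *Nt5e* transcripts above this level were thus not detectable in most mice, at 19 to 76 reads per mouse. The other 6 genes were above it in every mouse. *Gda* was 5.98 to 139 times that level, *Hprt* 3.77 to 161, *Enpp5* 3.38 to 102, *Enpp4* 2.66 to 53.1, *Ampd3* 2.06 to 37.5 and *Ada* 1.95 to 11.1 times. Subtracting the level from *Gda*, in a setting added after seeing the data, left 125 to 199 in young mice and 172 in old mouse 5. This mouse then fell within the young range while the other old mice had 415 to 653. For *Enpp5* the subtraction left 64.4 to 86.1 in young mice, 63.9 in old mouse 5 and 160 to 269 in the other old mice. For *Ampd3* it left 43.4 to 54.9 in young mice, 32.8 and 31.8 in old mice 5 and 7, and 63.4 to 126 in the other old mice.

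**Figure D4:**
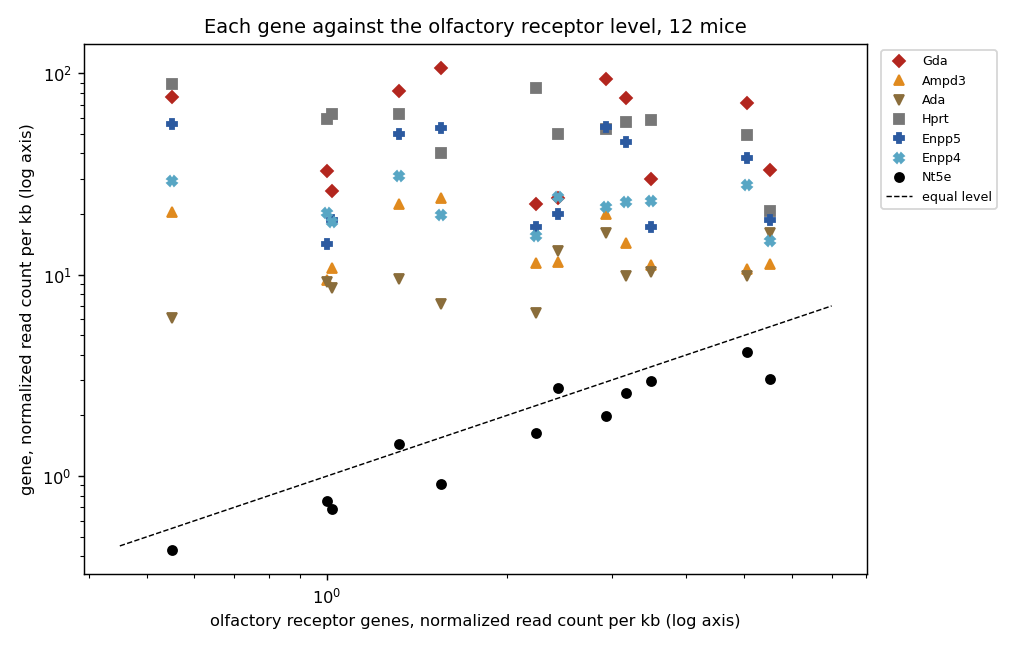
Normalized read count per kb of exon of each gene (vertical axis, log scale) against the olfactory receptor level per kb (horizontal axis, log scale) in the 12 mice. The dashed line marks equal levels; *Nt5e* follows it at 0.548 to 1.13 times, and the other 6 genes lie above it in every mouse.

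The rest of the purine pathway was described with 94 other genes, of which 82 had a row and 72 were tested. Between the ages, limma called 0 of 72, where 6 had an unadjusted p under 0.05 (8.33%, compared with 3.95% of all genes). edgeR's quasi-likelihood test and DESeq2 also called 0, with 6 and 8 genes at that unadjusted p. The de novo synthesis genes, which build the purine ring, had estimates above 0 for 3 and below 0 for 2 of 5, and the 4 genes of the IMP branch had a median of -0.37, with 4 estimates below 0 (3 below 0 and a median of -0.15 with the letter as a covariate). Among the salvage genes and nucleotide kinases 4 estimates were above and 7 below 0, and among the intracellular breakdown genes 7 and 7. Of 13 ectonucleotidase genes 9 had estimates above 0, with a median of 0.13, but 6 with the letter as a covariate, with a median of -0.011. Of 13 purine receptor genes 6 were above 0, and 4 with the covariate. The genes for the molybdenum cofactor that xanthine dehydrogenase needs had 3 of 4 estimates above 0, and the transporter genes 2 of 8. None of these lists held a called gene.

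The 8 pathway genes with the smallest unadjusted p did not pass the test. *Acpp*, an acid phosphatase that can release adenosine from AMP, had 21.2 to 39.1 in young and 31.5 to 71.3 in old mice, with a log2 difference of 0.66 (SE 0.23, adjusted p = 0.852 in limma). *Ak1*, an adenylate kinase, had a difference of 0.61 (SE 0.27). *Slc28a2*, which carries purine nucleosides into the cell, had 26.9 to 35.3 in young and 16.0 to 25.5 in old mice. Its difference was -0.60 (SE 0.23, adjusted p = 0.970 in limma). The ages did not overlap, but the gene was picked for its small p. The share of all genes with every old mouse below every young mouse was not counted. Estimates for *Impdh1*, which commits IMP to GMP, *Ak4*, *Dguok*, *Ak3* and *Panx1* were -0.66, -0.60, -0.52, -0.41 and -0.41, with adjusted p of 0.9997 in limma.

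Between the letters, 21 of the 72 pathway genes were called (29.2%), of which 18 were lower (25.0%) and 3 higher in B mice. Both shares were near or below those of the whole table (36.1% called and 25.6% lower). After rescaling by median ratios 12 of 69 were lower and 18 higher, so the number of calls in each direction depended on the scaling. *Impdh2*, the other IMP dehydrogenase, had 17.4 to 39.3 in A and 114 to 164 in B mice, a log2 difference of 2.23 (SE 0.20). *Ampd2*, an AMP deaminase like *Ampd3*, was higher in B mice by 0.72 (SE 0.21), and *Samhd1*, which cleaves deoxynucleotides, by 0.49 (SE 0.19). On the deposited scale, lower in B mice were 7 of 13 ectonucleotidase genes, 5 of 13 purine receptor genes, 2 of 8 transporter genes, 2 of 4 molybdenum cofactor genes, and 1 each of the breakdown and the salvage genes. Among the ectonucleotidases these were *Entpd2*, *Entpd3*, *Entpd8*, *Enpp1*, *Enpp3*, *Enpp6* and *Alpl*, with log2 differences of -1.72 to -1.32. Of the 18 lower genes, 14 had a median level under 2 times that of the olfactory receptor genes in the same mice, compared with 6 of the 51 genes not called and 0 of the 3 higher genes. *Enpp4* and *Enpp5*, at medians of 8.67 and 14.3 times that level, were not called between the letters.

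**Figure D5:**
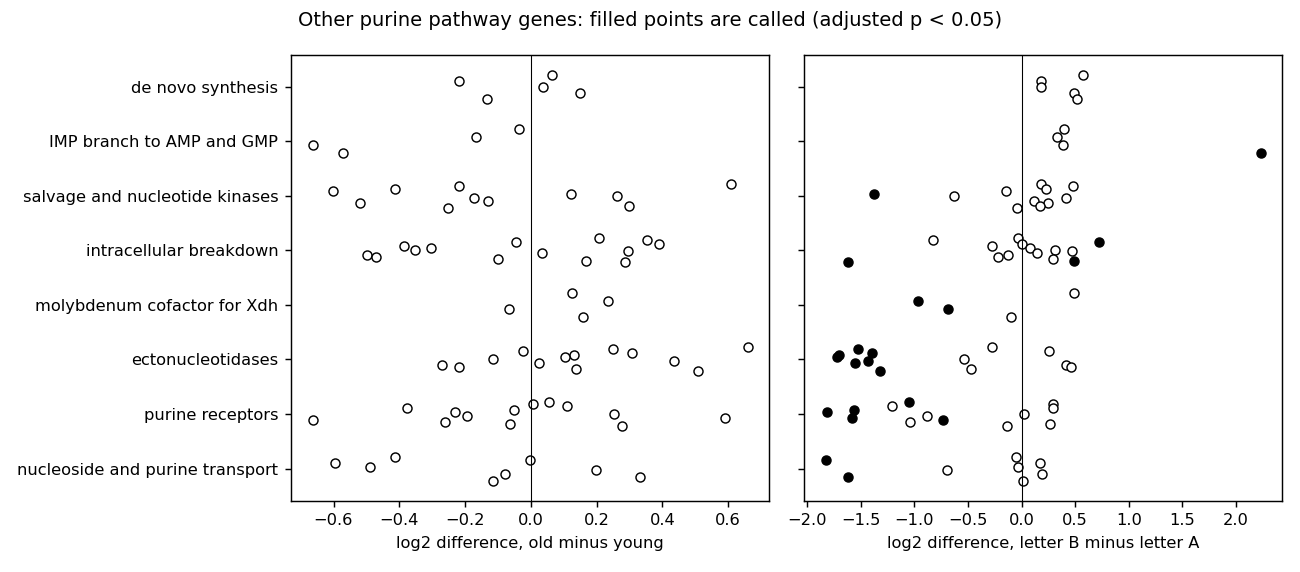
Log2 difference of 72 other purine pathway genes between the ages (left, horizontal axis) and between the label letters (right, horizontal axis), in 8 lists on the vertical axis. Filled points are called at an adjusted p under 0.05; no point is filled for age, and 18 of the 21 filled points for the letter are lower in B mice on the deposited scale, where rescaling by median ratios gives 12 lower and 18 higher.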

How the data were processed

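RNA had been extracted from 15000 sorted cells, and 300 pg of ribosomal RNA-depleted RNA entered each library. The submitters' processing notes name FastQC 0.11.8, STAR 2.5.4b, edgeR 3.24.3 and the mm10 build. The values used are a signal deposited by the authors, normalized read counts made by dividing the reads per gene by an effective library size. A table of the authors' own comparison (log2 fold changes, log2 CPM, likelihood ratios, p-values and FDR) was not used.

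Whole reads were obtained from each value and the step of 1 read in its library (100% of values within 0.01 of a whole read). limma 3.58.1 in R 4.3.3 (lmFit, eBayes with trend) was fitted on log2(value + 1) to all genes with a mean of at least 10, and Benjamini-Hochberg adjustment ran over all of them. Fold changes on this scale understate those of low genes. Age was fitted alone, the letter with age, and their interaction in a separate model. edgeR 4.0.16 and DESeq2 1.42.0 on the recovered reads, other pseudocounts (0.5, 5), minimum means (1, 30, none), median-ratio scaling, no trend, the letter as a covariate, each letter alone, a replicate block and leaving out each mouse were alternatives. Leaving out old mice 5 and 7 together, mice 1 to 5 without the block, the stem cell marker scale and the subtraction of the olfactory receptor level were chosen after seeing the data. Single values were tested by exact permutation. The procedures were tested on simulated data. Gene models came from GENCODE vM21, in which 18745 of 18762 identifiers were found, and windows upstream of start sites from RefSeq (GRCm38.p6). At most 0.821% of the 50-base words of any of the 7 genes occur elsewhere in the transcripts. Other steps ran in Python 3.11.15 with scipy 1.17.1, pandas 2.3.3 and numpy 2.4.6.

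The 7 genes, the pathway and marker lists and the tests were chosen with earlier results of these data known. Named genes were all listed genes with a row, the 8 other pathway genes with the smallest unadjusted p for age, and the 5 genes most like *Gda* and *Enpp5*. Genes named in the letter comparison of the pathway, and the markers, were named outside this rule, after their values were seen. A further gene of the stem cell marker list is not reported here, and the marker sum was taken without it.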

Additional observations from a re-analysis of the deposited data

How the results depend on the processing

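The higher level of *Gda*, *Enpp5* and *Ampd3* in old mice kept its direction under every alternative, but calls at these group sizes depended on the setting. Genes called between the ages numbered 13, and 22 with a minimum mean of 30, 5 with median ratios, 58 in DESeq2, 2 without the trend, 37 with the letter as a covariate, 3 among A mice, 98 among B mice and 49 without old mice 5 and 7, and leaving out 1 mouse gave 3 to 32. Of the 7 genes, 2 were called, and 0 with median ratios, without the trend or among A mice, and 0 to 2 when 1 mouse was left out. *Gda* lost its call in 8 and *Enpp5* in 11 of the 12 fits without 1 mouse, with log2 differences of 1.35 to 1.63 and 1.22 to 1.49, and both were called without old mouse 5. *Ampd3* ranged from 0.26 among A mice to 1.07 among B mice. Other pathway genes called for age stayed at 0 in all alternatives.

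Genes called between the letters numbered 4462, and 1456 with a minimum mean of 30, 1990 without old mice 5 and 7, and 2817 to 5014 without 1 mouse, the lowest without young mouse 2. Of the 7 genes 1 was called, and 0 with a minimum mean of 30 (which removes *Nt5e* and *Ada*), 3 with median ratios, 2 in DESeq2 and 2 without the trend (*Ada* with *Nt5e* in both), and 1 in each fit without 1 mouse. Without old mice 5 and 7 the letter difference was -0.088 for *Enpp4* and -0.029 for *Enpp5*, both of the other sign and not called, and without 1 mouse that of *Enpp4* was -0.11 to 0.094, with the 4 sign changes at -0.0081, -0.097, -0.075 and -0.11 without old mice 1, 2, 4 and 5. Interaction calls numbered 2, and 1 with no filter, 1 with a minimum mean of 30, 4 in DESeq2, 0 without the trend, 1 without old mice 5 and 7, and 0 to 6 without 1 mouse. The causes were not tested.

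Young and old mice share replicate numbers 1 to 5 but are different animals, so the numbers were not taken to pair them. The deviations of same-numbered mice correlated at -0.56 to 0.61 (mean 0.14). They correlated at 0.18, 0.40 and 0.61 where both mice had the same letter, and at -0.56 and 0.04 where the letters differed. Letter and number are mixed in these values, so they cannot decide whether the numbers pair mice. With the replicate block the age calls were 19 genes and 2 of the 7, against 8 and 0 for mice 1 to 5 without it. The replicate block gave 2950 letter calls (1829 higher and 1121 lower in B mice, with 12 and 6 among the other pathway genes). Of the 7 genes it called 2, *Hprt* and *Enpp5*, while *Nt5e* was at -0.91 (adjusted p = 0.263 in limma). Only replicate numbers 2 and 5 hold mice of both letters, so the letter difference in this fit rests on those mice alone. It is therefore not comparable with the letter difference over all mice. The block also gave 1 interaction call, against 0 interaction calls without it. Depth limits *Nt5e* and *Ada* most, at 19 to 76 and 16 to 94 reads per mouse.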
